A study of Mus musculus with 12 samples.

Results

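The kidney transcriptome of mice that received 10 mg CBD/kg b.w., the lower of the doses given in the study, was compared with that of the control group. Cannabidiol (CBD) is a non-intoxicating cannabinoid of Cannabis sativa. The comparison was made of all libraries labelled as long-term treatment with 10 mg CBD/kg (n = 4 mice) and all labelled as long-term control (n = 4 mice), which are 8 of the 12 libraries of the series. The other 4 libraries are of mice given 20 mg CBD/kg b.w. They entered the model so that the spread between mice was estimated from 3 groups, and their values are given here for genes that changed at 10 mg. The question was which kidney genes move at the lower dose, and which stay near the control level.

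All mice were C57BL/6J males, 60 days old at the start, kept under a 12-hour light and dark cycle and injected intraperitoneally every day for 28 days. The vehicle was saline holding 2% Tween 80, given alone to the control mice and with CBD at 10 mg/kg to the treated mice, so that injection and vehicle are shared by both groups. Kidney tissue was used, of 1 strain and 1 sex, and each library came from 1 mouse. Whether the whole organ or a part of it was extracted is not given in the sources used here. RNA was selected for poly(A) and sequenced as paired reads. The total counted on genes was between 17946614 and 23532088 per control library and between 15417867 and 21977253 per treated library. Levels are given as CPM, the counts of a gene per 1000000 counts of its library, with library sizes scaled by the trimmed mean of M-values (TMM). CPM is not corrected for transcript length, so levels are compared between mice and not between genes. In RNA of a tissue, fewer cells of a type and less RNA per cell cannot be told apart.

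The genes that passed the test at this dose belong mostly to the circadian clock, which runs in kidney cells as in most cells of the body. In that clock the transcription factors BMAL1 and CLOCK or NPAS2 bind E-box sequences and switch on the Per, Cry and Rev-erb (Nr1d) genes and the PAR bZIP factor Dbp, while the PER and CRY proteins in turn block BMAL1. The REV-ERB proteins repress a group of genes through ROR elements, among them Bmal1 and Npas2, so that this group peaks at the opposite time of day to the E-box group. DBP and its relatives TEF and HLF bind D-box sequences and carry the rhythm to enzymes and transporters, and NFIL3 represses through the same D-box. The hour of killing of the mice is not given in the sources used here.

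The D-box and E-box sequences upstream of genes of this loop are shown first, because Dbp, the gene with the largest called change, encodes a protein that binds the D-box and because Per3, the other called gene with a higher level, carries this sequence more than once. They were read from GRCm39 in the 1000 bases before the start of each gene's canonical transcript in GENCODE vM39, with 10 bases on either side, and are written 5′ to 3′ on the strand of the gene. Capitals mark the D-box (TTATGTAA) or the E-box (CACGTG).
Per3 D-box, 140 bases upstream (chr4:151129263-151129290, minus strand): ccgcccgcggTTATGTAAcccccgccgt
Per3 D-box, 187 bases upstream (chr4:151129310-151129337, minus strand): gacccgcgcgTTATGTAAggtactcggg
Per3 D-box, 652 bases upstream (chr4:151129775-151129802, minus strand): gtagagacagTTATGTAAaaggagcatc
Per2 D-box, 125 bases upstream (chr1:91387154-91387181, minus strand): catgtgcgtcTTATGTAAagagagcgac
Ciart D-box, 658 bases upstream (chr3:95790197-95790224, minus strand): gcgtggcaagTTATGTAAgaaccggctg
Tef E-box, 138 bases upstream (chr15:81695467-81695492, plus strand): cctggcccagCACGTGtctacatcgt
Nr1d1 E-box, 367 bases upstream (chr11:98666511-98666536, minus strand): gttctccaatCACGTGaagctctcac
Per1 E-box, 22 bases upstream (chr11:68989236-68989261, plus strand): cccttaacgaCACGTGggccctcaat

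The windows of 13762 protein-coding genes that passed the filter on low counts were searched on both strands. The E-box CACGTG was found in 17.6% of them, the D-box (TTATGTAA or TTACGTAA) in 3.84% and the core of the ROR element (TAGGTCA or TGGGTCA) in 20.8%. Of 12 clock genes listed as driven through E-boxes, 5 held the E-box in this window (Bhlhe40, Ciart, Nr1d1, Per1 and Tef), 3 held the D-box (Ciart, Per2 and Per3) and 2 the ROR core (Bhlhe41 and Dbp). Of 6 clock genes listed as driven through ROR elements, 2 held the E-box (Cry1 and Nfil3), and 0 held the ROR core or the D-box. None of these sequences was found in the windows of Npas2 and Ppard, and that of Ypel2 held 2 ROR cores. The window of Dbp held 2 ROR cores and neither the E-box nor the D-box. These matches describe letters in 1 window and are not evidence of binding.

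Before the results, 2 treated libraries have to be described, because they stood apart from the other libraries. Replicates 1 and 3 of the group treated with 10 mg had 3.53% and 4.55% of their counts on mitochondrially encoded genes, while replicates 2 and 4 both had 15.3%. In the control group these shares were 12.8%, 5.77%, 17.6% and 13.5%, so that 1 control library was low as well. Replicates 1 and 3 were the 2 highest of the 8 libraries in 15.9% of all tested genes, but in 159 of the 217 genes with a log2 fold change above 1 (73.3%). The same held for 76 of the 86 processed pseudogenes with a higher level at an unadjusted p under 0.05 (88.4%) and for 10 of the 12 mitochondrial tRNAs tested. Replicates 1 and 3 were the 2 lowest in 13.5% of all tested genes and in 31 of the 93 genes with a log2 fold change below -1 (33.3%). Of the 2 called genes that rose, they were the 2 highest in 0, and of the 3 that fell, they were the 2 lowest in 1. A difference carried by 2 of 4 mice widens the spread and is less likely to pass, so these counts lend the called genes no weight. Values of the called genes are therefore also given with the treated group reduced to replicates 2 and 4, a choice made after the data were seen.

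At an adjusted p under 0.1, the threshold of the study, 5 of 17163 genes tested (0.0291%) differed between the group treated with 10 mg and the control group by edgeR's quasi-likelihood test with Benjamini-Hochberg adjustment. Dbp and Per3 rose (0.0117% of the genes tested), and Ppard, Npas2 and Ypel2 fell (0.0175%). All 5 encode proteins. Dbp, Per3 and Npas2 are clock genes, Ppard is a nuclear receptor and Ypel2 is a member of the yippee-like family of small zinc-binding proteins. The smallest adjusted p among the uncalled genes was 0.182. With DESeq2, the tool that the study itself used, 40 genes passed the same threshold (18 higher and 22 lower), among them all 5. Acmsd, Bmal1, Hmox1, Nfil3 and Ppm1h, which edgeR did not call, were also among the 40. With the treated group reduced to replicates 2 and 4, only Dbp passed edgeR's test. Without a filter on low counts, 331 genes of 40012 passed.

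**Figure D1:**
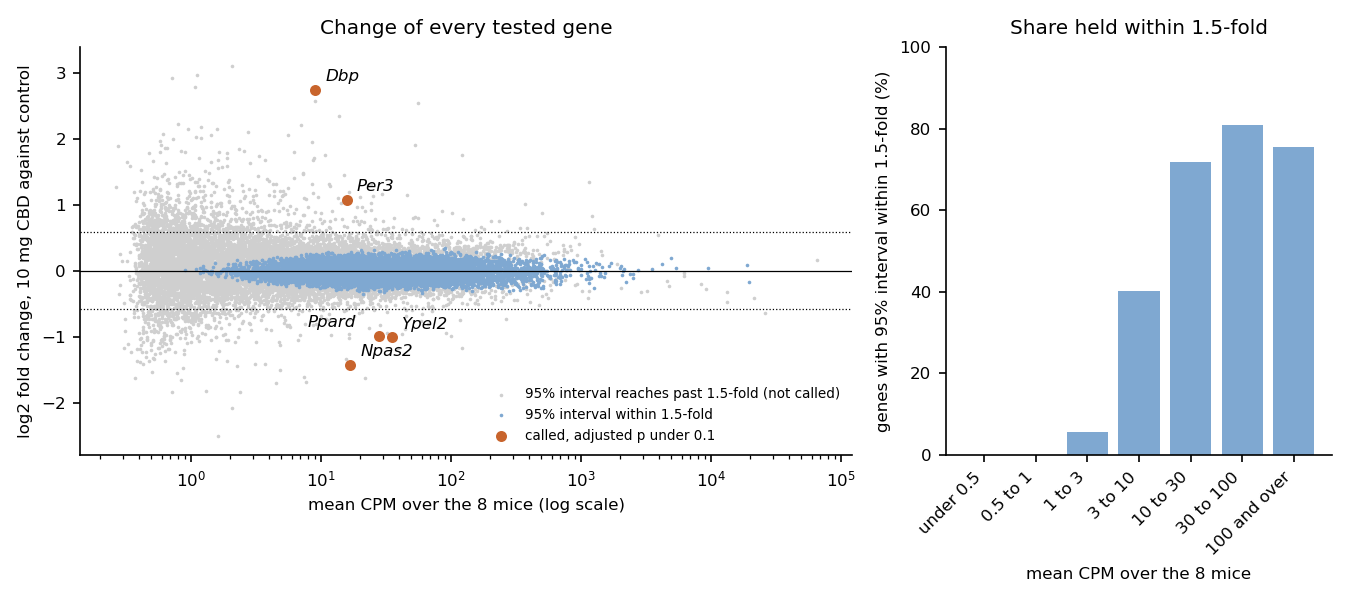
Left, the log2 fold change of each of the 17163 tested genes, 10 mg against control, by its mean CPM over the 8 mice on a log axis, with the 5 called genes named. Right, the percentage of genes in each range of mean CPM whose 95% interval lay within 1.5-fold of the control level, which was 0% under 0.5 CPM and 80.9% between 30 and 100 CPM.

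Most genes lay close to the control level. The median absolute log2 fold change over all genes tested was 0.15, and 95% of genes had one under 0.68. For 8231 genes (48%) the whole 95% interval of the fold change lay within 1.5-fold of the control level in either direction, and for 13380 genes (78%) within 2-fold. The genes held within 1.5-fold carried 62.0% of the counts of the tested genes. This share depended on the level, since the median standard error over all genes was 0.20 on the log2 scale. It was 5.54% between 1 and 3 CPM, 40.2% between 3 and 10 CPM, 71.9% between 10 and 30 CPM and 75.4% at 100 CPM or more. The smallest absolute log2 fold change called in this fit was 0.98, so it called no change near 1.5-fold at any level.

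Dbp encodes the D-box binding factor that carries the clock's rhythm to output genes. It lies at chr7:45354512-45359627 on the plus strand. Its level was 1.43, 2.19, 2.92 and 2.88 CPM in the control mice and 14.9, 12.9, 19.6 and 15.3 CPM in the mice treated with 10 mg. The lowest treated mouse was above the highest control mouse by a wide gap, and the means were 2.36 ± 0.703 and 15.7 ± 2.81 CPM (SD, n = 4). Dbp rose by 2.75 ± 0.21 (SE) on the log2 scale, or 6.71-fold with a 95% interval from 4.94 to 9.11 (edgeR adjusted p = 1.88e-05). It passed in each of the 8 fits that left out 1 library, and with replicates 2 and 4 alone (log2 fold change 2.59, adjusted p = 0.000341). At 20 mg the mean was 24.0 ± 2.22 CPM (log2 fold change 3.36 against the same control mice, adjusted p = 1.31e-06), and the difference between the doses did not pass (0.61, adjusted p = 0.758).

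Per3, a period gene whose protein belongs to the repressing limb of the clock, lies at chr4:151081373-151129140 on the minus strand. The control mice had 8.23, 12.3, 10.7 and 9.52 CPM and the treated mice 18.9, 20.6, 24.1 and 22.5 CPM, without overlap. The level of Per3 rose 2.11-fold, by 1.08 ± 0.15 on the log2 scale (95% interval from 0.76 to 1.40, edgeR adjusted p = 0.0184). The call was lost without control replicate 1 (adjusted p = 0.118), without control replicate 4 (0.109) and without treated replicate 3 (0.113), with log2 fold changes of 0.99, 1.05 and 1.02. With treated replicates 2 and 4 alone it was 1.08, with an adjusted p of 0.217. At 20 mg the mean was 26.7 ± 3.68 CPM, against 21.5 ± 2.26 CPM at 10 mg, and the doses did not differ by the test (adjusted p = 0.785).

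Npas2, the paralog of Clock that also pairs with BMAL1, lies at chr1:39232705-39402323 on the plus strand. Its level was 24.3, 19.6, 29.4 and 24.5 CPM in the control mice and 9.10, 11.1, 6.69 and 9.63 CPM in the treated mice. All treated mice lay below all control mice. Npas2 fell 2.68-fold, with a log2 fold change of -1.42 ± 0.23 (95% interval from -1.92 to -0.93, edgeR adjusted p = 0.0792). The call was lost in 6 of the 8 fits that left out 1, with adjusted p between 0.193 and 0.46, namely those without control replicate 1, 3 or 4 and without treated replicate 1, 3 or 4. With treated replicates 2 and 4 alone the log2 fold change was -1.24 (adjusted p = 0.824), and with the replicate number as a block it was -1.46 (adjusted p = 0.168). At 20 mg the mean was 8.97 ± 3.25 CPM beside 9.12 ± 1.83 CPM at 10 mg.

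Ppard encodes PPAR-delta, a nuclear receptor that fatty acids activate and that drives genes of fatty acid oxidation. The gene lies at chr17:28451674-28520448 on the plus strand. Its levels were tight within groups, with 36.3, 34.9, 41.4 and 36.0 CPM in the control mice and 19.4, 18.6, 18.2 and 19.1 CPM in the treated mice. Ppard fell 1.98-fold, by 0.98 ± 0.12 on the log2 scale (edgeR adjusted p = 0.00899), from 37.2 ± 2.86 to 18.8 ± 0.509 CPM. The call held without each of the 8 libraries in turn. With treated replicates 2 and 4 alone the log2 fold change was -0.99 (adjusted p = 0.217). At 20 mg the mean was 18.2 ± 2.91 CPM, close to that at 10 mg, with a difference between the doses that did not pass (adjusted p = 0.971).

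Ypel2 lies at chr11:86827251-86884646 on the minus strand. It had 62.5, 43.0, 45.8 and 36.5 CPM in the control mice and 25.3, 27.2, 20.6 and 20.5 CPM in the treated mice. The groups did not overlap, and the control mice spread more widely than the treated ones (SD 11.1 and 3.38 CPM). Ypel2 fell 2.01-fold, with a log2 fold change of -1.01 ± 0.17 (edgeR adjusted p = 0.0944), close to the threshold. It was lost in 6 of the 8 fits that left out 1 library, with adjusted p between 0.168 and 0.601, namely those without control replicate 1, 2 or 3 and without treated replicate 1, 3 or 4. With treated replicates 2 and 4 alone the log2 fold change was -0.99 (adjusted p = 0.739). The call was also lost with upper-quartile normalization (adjusted p = 0.101), with at least 10 counts in every library (0.101) and with only the 8 libraries compared (0.159). At 20 mg the mean was 18.4 ± 2.69 CPM.

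For each of the 5 genes the exact permutation test over the 8 mice gave a two-sided p of 0.0286, which is the smallest value that the 70 arrangements of 4 mice against 4 allow. Every gene whose groups do not overlap has this value (3.19% of all genes tested). It therefore adds nothing to the absence of overlap in genes called from the same mice. The changes were of similar size among libraries of like mitochondrial share. With only the libraries (3 control, 2 treated with 10 mg) that had at least 10% of counts on mitochondrial genes, the log2 fold changes were 2.57 for Dbp, 1.18 for Per3, -1.01 for Ppard, -1.34 for Npas2 and -1.03 for Ypel2, and all 5 passed (edgeR adjusted p of 4.88e-05, 0.0097, 0.0187, 0.0237 and 0.0874). This fit called 26 genes in all. Its 2 treated libraries are replicates 2 and 4, the same mice as in the reduced fit above, in which only Dbp passed. The 5 genes were called with these mice included, so that passing here is not separate support.

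**Figure D2:**
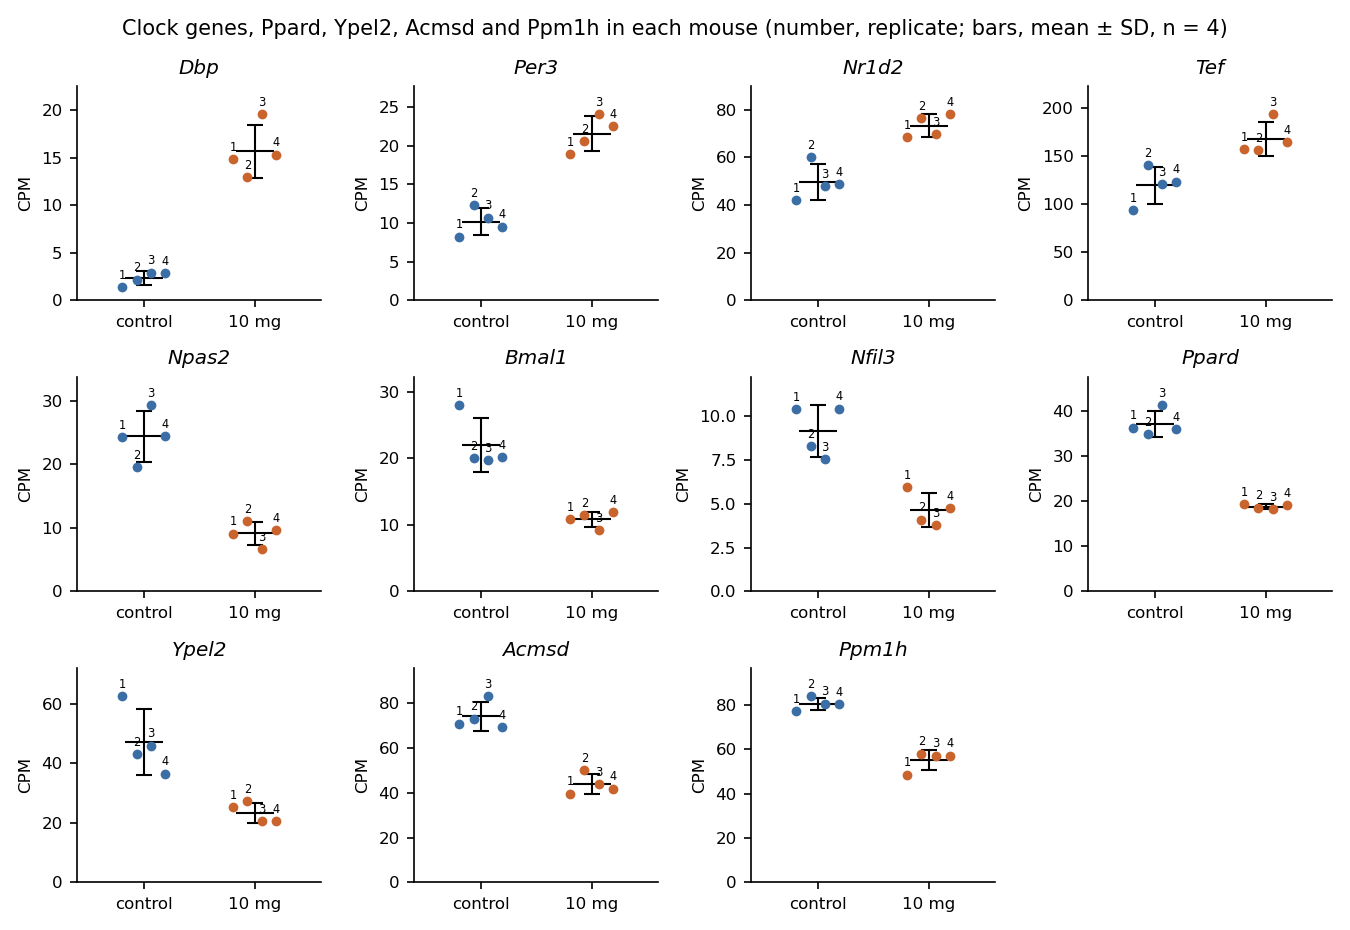
CPM of 11 genes in each control mouse and each mouse treated with 10 mg, where the number at a point is the replicate and the bars are the mean ± SD (n = 4). Dbp was at 2.92 CPM or less in the control mice and at 12.9 CPM or more in the treated mice. The 11 genes are called genes and uncalled genes without overlap (3.19% of all genes tested do not overlap). Clock genes whose groups overlap, such as Nr1d1 and Clock, are not shown.

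The clock genes listed as driven through E-boxes were higher as a group in the treated mice than all genes tested. Of the 12, all passed the filter on low counts, 2 rose (Dbp and Per3) and 10 had a higher level at an unadjusted p under 0.05, where 3.33% of all genes did. In 7 of the 12 the lowest treated mouse was above the highest control mouse, where 1.55% of all genes did. The median log2 fold change was 0.52, beside 0.01 over all genes tested. The list was chosen with earlier results of these data known.

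Among the members that did not pass the test across all genes, Nr1d2, which encodes the repressor REV-ERB-beta, had 42.1, 60.1, 47.9 and 48.7 CPM in the control mice and 68.4, 76.3, 69.8 and 78.2 CPM in the treated mice. Its groups did not overlap and its log2 fold change was 0.56 (edgeR adjusted p = 0.624). Tef, the D-box binding relative of Dbp, had a log2 fold change of 0.49, with 94.2 to 140.6 CPM in the control mice and 156.0 to 193.8 CPM in the treated mice. Nr1d1, the gene of REV-ERB-alpha, had a log2 fold change of 0.80, but treated replicate 1 (28.2 CPM) lay within the control range of 20.7 to 31.0 CPM, while replicates 2, 3 and 4 reached 58.1, 41.5 and 58.5 CPM.

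The genes of E-box repressors gave values of the same sign. The log2 fold change was 0.72 for Ciart, 0.68 for Bhlhe41 and 0.37 for Bhlhe40, without overlap between the groups in any of them, and none passed (edgeR adjusted p of 0.812, 0.795 and 0.795). Ciart had at most 2.57 CPM in the control mice and at least 3.05 CPM in the treated mice. Per2 and Cry2, whose proteins repress BMAL1, had log2 fold changes of 0.47 and 0.39 with overlapping groups. Per1 and Hlf stayed flat, with log2 fold changes of 0.07 and -0.02 and 95% intervals that lay within 1.5-fold (from -0.27 to 0.41 and from -0.35 to 0.32). Per1, Cry2 and Bhlhe40 were outside the rule for named genes and are given after their values were seen, so that the list is complete.

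The clock genes listed as driven through ROR elements were lower as a group. All 6 passed the filter, 1 fell (Npas2), and 5 had a lower level at an unadjusted p under 0.05, where 2.34% of all genes did. In the same 5, all treated mice lay below all control mice, where 1.64% of all genes did, and the median log2 fold change of the list was -0.9998. Cry1 is among these 5, although Cry genes are also switched on through E-boxes and its window held an E-box and no ROR core. The counts depend on its placement here, and this list too was chosen with earlier results of these data known. Bmal1, the partner of CLOCK and NPAS2, had 28.0, 20.0, 19.7 and 20.1 CPM in the control mice and 10.9, 11.4, 9.17 and 11.9 CPM in the treated mice. Its log2 fold change was -1.02 ± 0.20 and did not pass (edgeR adjusted p = 0.229), although it passed in 4 of the 12 alternative fits.

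Nfil3, which encodes the D-box repressor, had 7.56 to 10.4 CPM in the control mice and 3.79 to 5.97 CPM in the treated mice (log2 fold change -0.98, edgeR adjusted p = 0.202). Cry1, a repressor that peaks later than the other cryptochrome, had 9.49, 7.35, 5.19 and 4.73 CPM in the control mice and 3.80, 1.98, 2.44 and 4.05 CPM in the treated mice (log2 fold change -1.12, adjusted p = 0.596). Cry1 was named after its values were seen. Clock itself overlapped between the groups, with 53.0 to 84.3 CPM and 42.8 to 79.2 CPM, and its log2 fold change of -0.27 had an interval from -0.69 to 0.15. 

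Genes further from the core loop that are known to follow the clock in kidney had a median log2 fold change of 0.06. This was nearer 0 than the medians of the E-box and ROR lists. Of 14 listed, 13 were tested, 0 were called and 7 were held within 1.5-fold, where 48% of all genes were. In 2 of the 13 the lowest treated mouse was above the highest control mouse, where 1.55% of all genes did. The summed level of the list was 1091 to 1171 CPM in the control mice and 1180 to 1300 CPM in the treated mice, without overlap. Sums of some lists outside the clock did not overlap either, among them those of hypoxia response and inflammatory genes. Alas1, the first enzyme of heme synthesis and a known clock output, had 55.8 to 72.1 CPM in the control mice and 75.3 to 108.8 CPM in the treated mice, without overlap (log2 fold change 0.54, edgeR adjusted p = 0.679). Usp2, a deubiquitinase, had at most 107.0 CPM in the control mice and at least 116.2 CPM in the treated mice (log2 fold change 0.34).

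**Figure D3:**
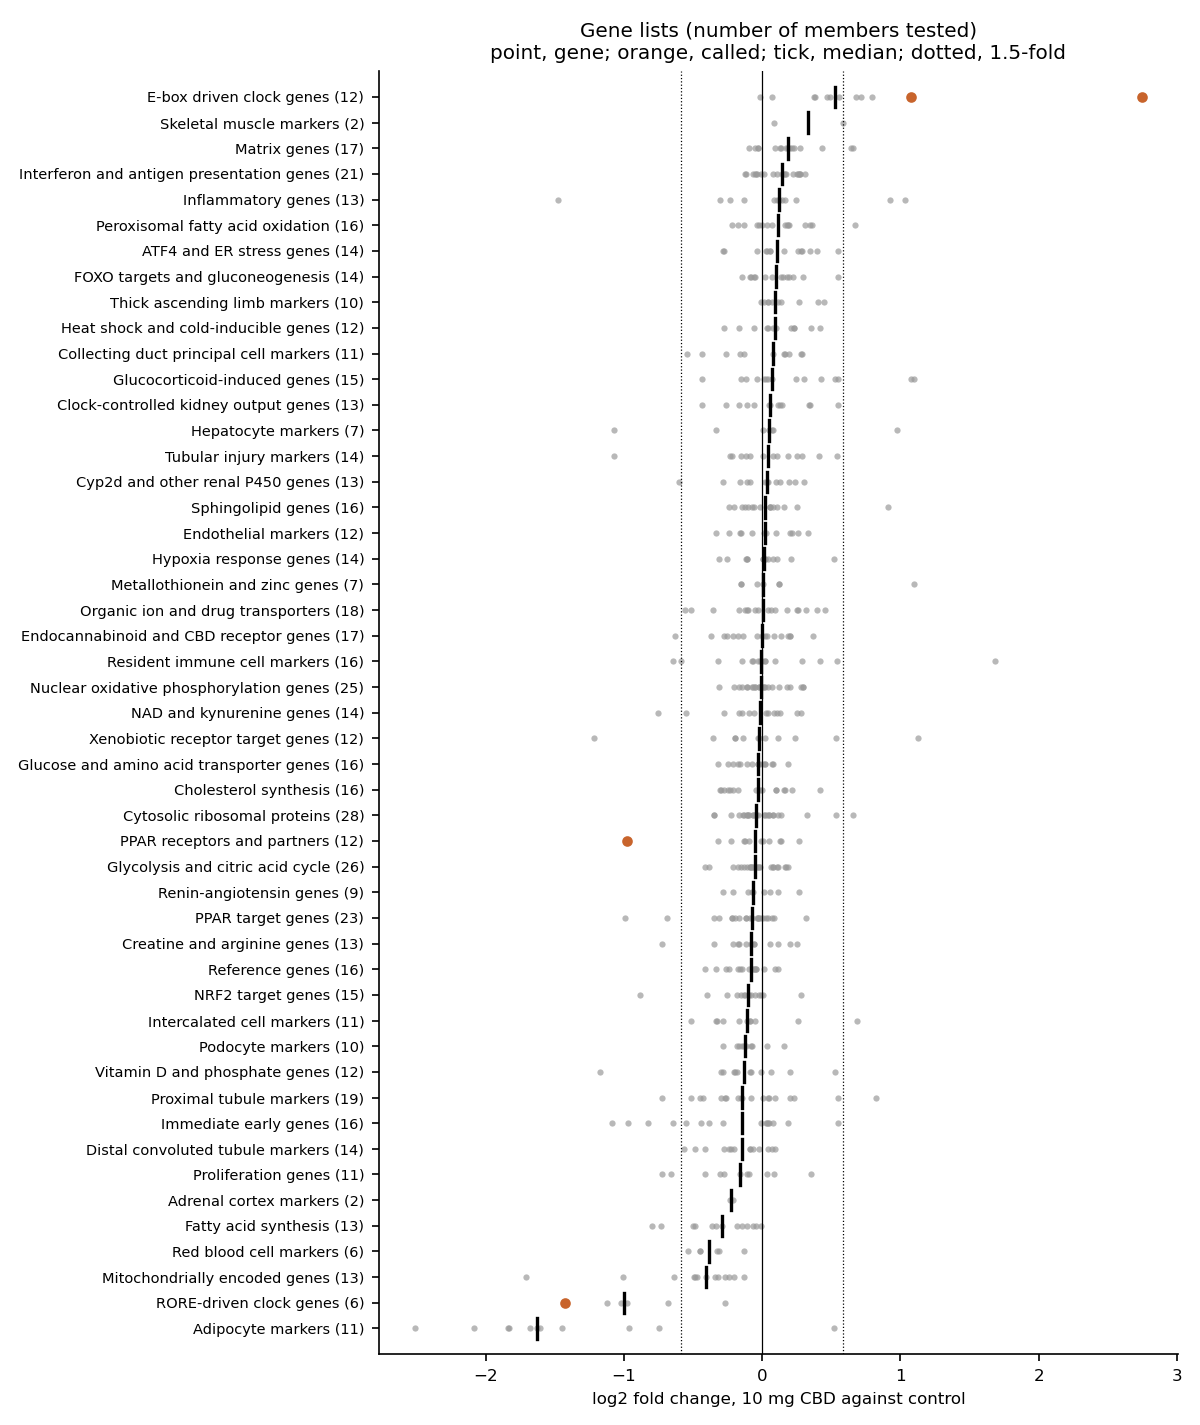
Log2 fold change of each tested member of the 49 gene lists, 10 mg against control, with lists ordered by their median (tick) and called genes in orange. The dotted lines are 1.5-fold, and the list of E-box driven clock genes (median 0.52) and those of RORE-driven clock genes (-0.9998) and adipocyte markers (-1.63) have the medians farthest from 0 among lists with at least 3 tested members.

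Ppard was the only called gene among 12 PPAR receptors and partners, of which 8 were held within 1.5-fold. Ppara, the receptor of fatty acid oxidation in liver and kidney, had a log2 fold change of 0.13 and Pparg, the receptor of adipocytes, one of -0.13. Of 23 PPAR target genes, 0 were called, 12 were held within 1.5-fold, and the median log2 fold change was -0.08. Cpt1a, which carries long-chain fatty acids into mitochondria, had 325 to 479.5 CPM in the control mice and 384.7 to 519 CPM in the treated mice, with a log2 fold change of -0.01 and an interval from -0.39 to 0.38. Pdk4, an inhibitor of pyruvate oxidation, was the only target with an unadjusted p under 0.05. It had 240.4, 101.2, 120.9 and 76.8 CPM in the control mice and 41.9, 101.9, 51.4 and 76.2 CPM in the treated mice, so that the groups overlapped and the lowest values were in replicates 1 and 3 (log2 fold change -0.99, edgeR adjusted p = 0.812).

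Other lipid pathways had no called gene. Of 16 genes of peroxisomal fatty acid oxidation, 0 were called and 10 were held within 1.5-fold. Hacl1, an enzyme of alpha-oxidation, had 6.09 to 7.94 CPM in the control mice and 8.31 to 15.7 CPM in the treated mice (log2 fold change 0.67, edgeR adjusted p = 0.795). Of 16 cholesterol synthesis genes, 9 were held within 1.5-fold. Of 13 fatty acid synthesis genes, all 13 had a log2 fold change below 0 with a median of -0.29, 2 had a lower level at an unadjusted p under 0.05 (2.34% of all genes did), 6 were held within 1.5-fold and 0 were called. Fasn, the fatty acid synthase, had 54.1 to 118.1 CPM in the control mice and 39.7 to 60.8 CPM in the treated mice (log2 fold change -0.80, adjusted p = 0.795). The higher control levels of Fasn were in replicates 2 and 4 (109.8 and 118.1 CPM), which also had the highest summed level of 10 adipocyte markers (359.1 and 334.8 CPM). The part of adipocytes in this value was not tested.

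Acmsd encodes the enzyme that diverts an intermediate of tryptophan breakdown away from NAD synthesis, and it is expressed in proximal tubule. It had 70.8, 73.0, 83.1 and 69.1 CPM in the control mice and 39.5, 50.01, 43.8 and 41.7 CPM in the treated mice, without overlap. The log2 fold change was -0.76 ± 0.14, with an edgeR adjusted p of 0.182, and 4 of the 12 alternative fits called it. Kynu, which acts on the kynurenine branch, had a log2 fold change of -0.55 and no overlap between the groups. Of the 14 tested genes of NAD and kynurenine metabolism, 9 were held within 1.5-fold.

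Ppm1h, a phosphatase of Rab proteins, had 77.2, 84.0, 80.5 and 80.2 CPM in the control mice and 48.6, 57.9, 57.2 and 57.1 CPM in the treated mice. The groups were far apart for their spread, but the log2 fold change of -0.54 ± 0.10 did not pass (edgeR adjusted p = 0.182, DESeq2 adjusted p = 8.75e-05). Hmox1, heme oxygenase 1, had 45.5 to 73.9 CPM in the control mice and 26.4 to 37.2 CPM in the treated mice (log2 fold change -0.88, edgeR adjusted p = 0.305, DESeq2 adjusted p = 0.00844). Of the 15 tested targets of NRF2, the regulator of the oxidative stress response, 11 were held within 1.5-fold, 0 were called and the median log2 fold change was -0.10. Nav2 and Slc22a23 also did not overlap between the groups, with log2 fold changes of -0.60 and -0.60 (both with an edgeR adjusted p of 0.534).

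Among single genes of tubular function, Gatm, Cyp24a1 and Slc8a1 had lower levels in all treated mice without passing the test, each as the only such member of its list (1.64% of all genes did). Gatm, the first enzyme of creatine synthesis and an enzyme abundant in proximal tubule, had 347.5, 265.4, 315.1 and 395.3 CPM in the control mice and 178.6, 226.7, 171.0 and 224.9 CPM in the treated mice (log2 fold change -0.72, edgeR adjusted p = 0.534). Cyp24a1, which inactivates vitamin D, had 160.5, 173.8, 216.3 and 128.8 CPM and 45.3, 124.5, 56.3 and 75.2 CPM (log2 fold change -1.18, adjusted p = 0.679), with the lowest values in treated replicates 1 and 3. Slc8a1, the sodium-calcium exchanger of the distal tubule, had 74.2 to 93.2 CPM and 48.8 to 69.6 CPM (log2 fold change -0.56, adjusted p = 0.679). Pck1, the enzyme that commits to gluconeogenesis, lay on the other side, with 2645 to 3815 CPM in the control mice and 3985 to 5156 CPM in the treated mice (log2 fold change 0.55, adjusted p = 0.795).

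No marker of a nephron segment was called. Of all genes tested, 48% were held within 1.5-fold, and several segments did not exceed that share. Of 19 proximal tubule markers, 0 were called and 9 were held within 1.5-fold, and Slc5a2, the main glucose carrier of the early proximal tubule, had 196.9 to 235.8 CPM in the control mice and 164.6 to 220.5 CPM in the treated mice. Of 16 glucose and amino acid transporter genes, 14 were held within 1.5-fold, and the median log2 fold change was -0.03. Slc7a13, a transporter of the late proximal tubule, differed among treated mice, with 2302 and 2029 CPM in replicates 1 and 3 and 857.4 and 1016 CPM in replicates 2 and 4, against 743.8 to 1002 CPM in the control mice. Pth1r, the parathyroid hormone receptor, showed the same pattern, with 888.2 and 742.9 CPM in replicates 1 and 3, and its log2 fold change went from 0.53 to -0.04 when only replicates 2 and 4 were used.

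In the thick ascending limb 6 of 10 markers were held within 1.5-fold, in the distal convoluted tubule 9 of 14, in principal cells of the collecting duct 3 of 11 tested and in intercalated cells 5 of 11, with 0 called in each. Log2 fold changes were below 0 for 9 intercalated markers and above 0 for 2. Their summed level was 786.5 to 913.1 CPM in the control mice and 690.1 to 779.3 CPM in the treated mice. These sums did not overlap, although the groups overlapped in each single marker. Sums without overlap were not particular to this list. They were also found in the E-box, ROR and clock output lists and for glucocorticoid-induced, hypoxia response and inflammatory genes. In the distal convoluted tubule 11 log2 fold changes were below 0 and 3 above, and in the thick ascending limb 1 and 9. Umod, which encodes the main protein of normal urine, had 407 to 625.8 CPM in the control mice and 523.3 to 798.5 CPM in the treated mice (log2 fold change 0.26). Aqp2, the water channel that vasopressin regulates, spread from 42.1 to 109.5 CPM in the control mice and from 48.3 to 108.6 CPM in the treated mice. Podocytes were among the flattest, with 9 of 10 markers held within 1.5-fold. Nphs1, which encodes nephrin of the slit diaphragm, had 22.8 to 28.8 CPM and 21.8 to 26.7 CPM, with a log2 fold change of 0.03 and an interval from -0.28 to 0.35. Of 12 endothelial markers, 8 were held within 1.5-fold, and of 9 tested genes of the renin-angiotensin system, 7 were.

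Of 15 tested genes that glucocorticoids induce, 0 were called, 4 had a higher level at an unadjusted p under 0.05, where 3.33% of all genes did, 7 were held within 1.5-fold, and the median log2 fold change was 0.07. Zbtb16, a transcription factor that glucocorticoids raise in many tissues, had 15.7, 7.97, 10.5 and 5.98 CPM in the control mice and 25.4, 26.7, 20.6 and 12.2 CPM in the treated mice (log2 fold change 1.07, edgeR adjusted p = 0.795). Fkbp5, a cochaperone that restrains the glucocorticoid receptor, had 104.1 and 94.8 CPM in treated replicates 1 and 3, and 73.6 and 69.7 CPM in replicates 2 and 4, against 44.3 to 77.7 CPM in the control mice. Mt2, a metallothionein, had 14.9 and 13.3 CPM in treated replicates 1 and 3, and 5.67 and 7.98 CPM in replicates 2 and 4, against 2.99 to 6.34 CPM in the control mice. Mt1, its neighbour in function, was held within 1.5-fold (log2 fold change -0.16). Of 14 FOXO targets and genes of gluconeogenesis, 12 were held within 1.5-fold.

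The genes of the proteins through which CBD and endocannabinoids are known to act gave no call. Of 24 listed, 17 passed the filter, 0 had an unadjusted p under 0.05 and 6 were held within 1.5-fold, which is a smaller share than that of all genes (48%), and the log2 fold changes went down to -0.63 (Cnr2, the gene of cannabinoid receptor 2, at 1.79 CPM or less in every mouse). Cnr1, the gene of cannabinoid receptor 1, had 1 to 5 reads in the control libraries and 0 to 8 in the treated libraries, and Gpr55 had 2 to 4 and 1 to 4. Trpv1 and Trpa1, which encode cation channels of sensory neurons, had at most 2 and 1 reads in any of the 8 libraries. Htr1a, the gene of a serotonin receptor, had 0 reads in all of them. Napepld, which encodes an enzyme of anandamide synthesis, was the member without overlap, with 7.39 to 8.61 CPM in the control mice and 5.06 to 6.72 CPM in the treated mice (log2 fold change -0.37, edgeR adjusted p = 0.871). Trpv2, a channel that CBD opens, had 1.91 to 3.27 CPM and 1.82 to 3.98 CPM.

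Genes of drug metabolism were not called either. Of 19 targets of xenobiotic receptors, 12 were tested and 4 were held within 1.5-fold, and of 13 tested genes of the Cyp2d family and other renal cytochrome P450 enzymes, 9 were. Of all genes tested, 48% were. The log2 fold changes of the xenobiotic receptor targets ran from -1.215 to 1.13, with 5 above 0 and 7 below. Cyp1b1, a target of the aryl hydrocarbon receptor, had 24.6 to 41.4 CPM in the control mice and 31.8 to 43.2 CPM in the treated mice. Cyp2d22 had 26.3 to 30.0 CPM and 30.1 to 36.3 CPM, so that its groups did not overlap although its log2 fold change was only 0.20 and its interval lay within 1.5-fold. Cyp2a5 had a log2 fold change of 0.53 with overlapping groups (edgeR adjusted p = 0.812). Of 18 organic ion and drug transporters, 8 were held within 1.5-fold.

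Markers of injury and inflammation gave no call. Havcr1, the marker KIM-1 of injured proximal tubule, had 0.429 to 1.22 CPM in the control mice and 0.840 to 1.47 CPM in the treated mice, and Lcn2, the marker NGAL, had 0.598 to 1.85 CPM and 0.542 to 1.88 CPM. Of 14 injury markers tested, 6 were held within 1.5-fold and the median log2 fold change was 0.04. Of 13 inflammatory genes tested, 2 had higher and 1 had lower levels in all treated mice, where 1.55% and 1.64% of all genes did. Cxcr4, the receptor of the chemokine CXCL12, had 2.48, 1.72, 1.76 and 2.12 CPM in the control mice and 4.73, 2.84, 5.47 and 3.46 CPM in the treated mice (log2 fold change 1.03, edgeR adjusted p = 0.506). Ccl28, a chemokine of epithelia, had 2.10 to 4.38 CPM and 4.64 to 7.40 CPM (log2 fold change 0.92, adjusted p = 0.679). Il1b, the gene of interleukin 1 beta, had 0.87 to 1.76 CPM in the control mice and 0.226 to 0.619 CPM in the treated mice (log2 fold change -1.47, adjusted p = 0.702).

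Of 16 immune cell markers tested, 0 were called and the median log2 fold change was -0.01. Cx3cr1, the fractalkine receptor of macrophages, had 31.2 and 13.1 CPM in treated replicates 1 and 3, but 3.497 and 5.11 CPM in replicates 2 and 4, against 2.92 to 5.77 CPM in the control mice. Interferon and antigen presentation genes had a median log2 fold change of 0.15, with 9 of 21 held within 1.5-fold. The part of immune cells in the values of Cxcr4, Ccl28 and Il1b was not tested.

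Immediate early genes, which respond within minutes to stimulation or to handling of tissue, had 0 calls among 16 tested, and 4 had a lower level at an unadjusted p under 0.05, where 2.34% of all genes did. Ier3 had 20.3 to 23.1 CPM in the control mice and 13.1 to 17.9 CPM in the treated mice, without overlap (log2 fold change -0.55, edgeR adjusted p = 0.679). Egr1 and Nr4a1 overlapped between the groups, with 7.67 to 22.7 CPM and 6.19 to 11.3 CPM for Egr1 and with 8.25 to 15.6 CPM and 5.22 to 8.26 CPM for Nr4a1. The median log2 fold change of the list was -0.15.

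Adipocyte markers had the lowest median of the 49 lists, -1.63 over the 11 tested, and 7 had a lower level at an unadjusted p under 0.05, where 2.34% of all genes did. The groups overlapped in each of the 11, as in all but 3.19% of all genes, and 0 were called. Cidec, a protein of the lipid droplet, had 14.8, 15.3, 1.66 and 15.6 CPM in the control mice and 5.83, 6.66, 0.497 and 1.88 CPM in the treated mice. Adipoq, the gene of adiponectin, had 10.5, 19.2, 1.06 and 14.5 CPM in the control mice and 6.98, 5.94, 0.0452 and 1.88 CPM in the treated mice. In each group replicate 3 was the lowest in both genes. The summed level of 10 of these markers, without Lpl, was 284.6, 359.1, 127.1 and 334.8 CPM in the control mice and 183, 180.3, 85.2 and 111.1 CPM in the treated mice, so that 1 control mouse lay among the treated ones. Control replicate 3 was the lowest control mouse in 8 of the 10 markers and treated replicate 3 the lowest treated mouse in 9. Lpl, lipoprotein lipase, which kidney cells also express, went the other way, with 1924 and 1025 CPM in treated replicates 1 and 3 and 604.4 and 740.7 CPM in replicates 2 and 4. How much fat was left on each kidney is not given in the sources used here, and the part of fat in these values was not tested.

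**Figure D4:**
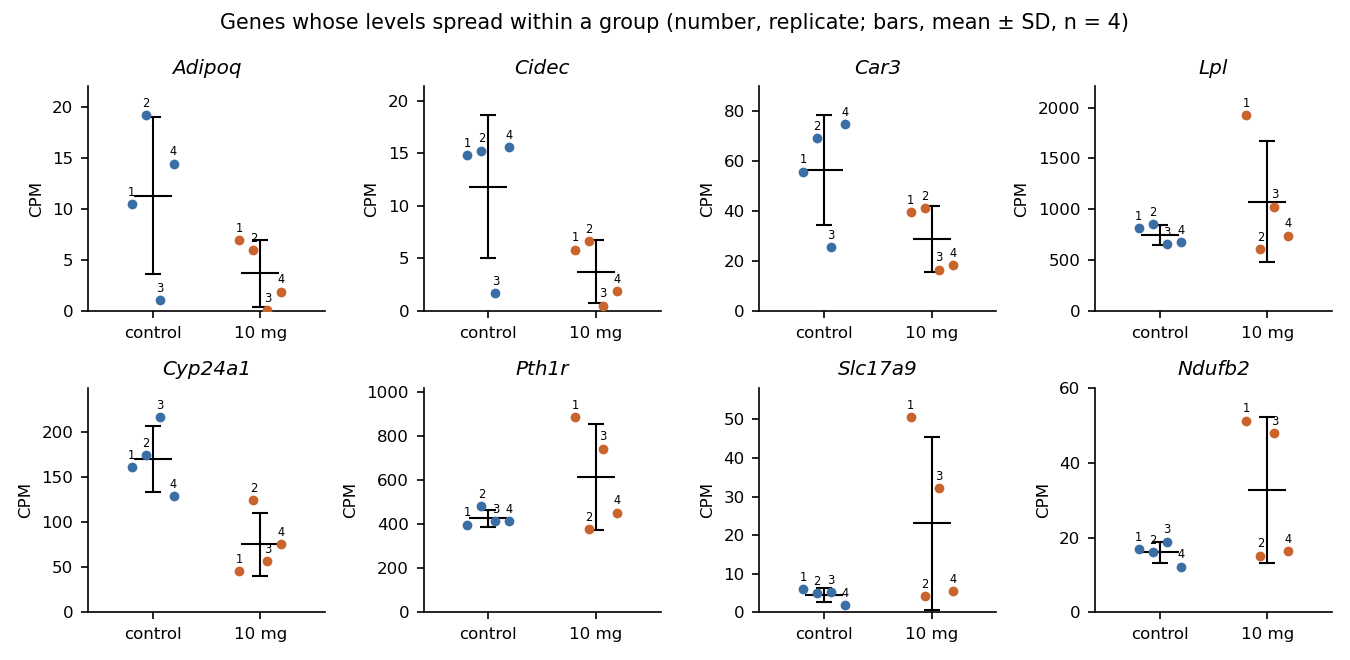
CPM of 8 genes whose levels spread within a group, in each control mouse and each mouse treated with 10 mg, where the number at a point is the replicate and the bars are the mean ± SD (n = 4). Replicate 3 is the lowest of its group for Adipoq and Cidec, and treated replicates 1 and 3 are the highest for Lpl, Pth1r, Slc17a9 and Ndufb2.

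Markers of the adrenal cortex and of skeletal muscle were low, and most did not pass the filter on low counts. Of 9 adrenal markers 2 passed (Star and Akr1b7), with a sum of 6.14 to 7.64 CPM in the control mice and 5.13 to 6.40 CPM in the treated mice. Of 7 muscle markers 2 passed (Mylpf and Actn3), with a sum of 1.26 to 1.96 CPM and 1.32 to 2.78 CPM. In the 8 libraries Cyp11b2, the aldosterone synthase of the adrenal cortex, had 0 reads, Cyp11b1 had at most 3, and Acta1 of skeletal muscle had at most 5. Alb, the gene of serum albumin, had 7.18 to 12.1 CPM in the control mice and 6.69 to 19 CPM in the treated mice. The 6 markers of red blood cells summed to 690.2 to 1505 CPM in the control mice and 673.8 to 1201 CPM in the treated mice, with a median log2 fold change of -0.39 and 0 called. Tubular markers were high in every library, among them Slc34a1, the phosphate carrier of the proximal tubule, with 3063 to 4070 CPM in the control mice and 2642 to 3306 CPM in the treated mice, and Lrp2, the endocytic receptor megalin, with 1891 to 2649 CPM and 1631 to 2259 CPM.

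Of 28 cytosolic ribosomal protein genes 21 were held within 1.5-fold, of 26 genes of glycolysis and the citric acid cycle 20, and of 25 nuclear genes of oxidative phosphorylation 16, with 0 called in each and medians of -0.05, -0.05 and -0.01 on the log2 scale. Sdha, a subunit of succinate dehydrogenase, had 935.9 to 1116 CPM in the control mice and 950.7 to 1043 CPM in the treated mice. Of 16 reference genes, 12 were held within 1.5-fold, among them Mrpl32 and Ppia with log2 fold changes of -0.06 and -0.26. Gapdh, often used as a reference, was not among them (log2 fold change -0.42, interval from -0.81 to -0.02). The 13 mitochondrially encoded mRNAs were spread more widely. All 13 had a log2 fold change below 0, with a median of -0.41, 0 were held within 1.5-fold, and the groups overlapped in each. Over the 49 lists, 331 of 639 tested genes (51.8%) were held within 1.5-fold, and in 41 of the 49 the median log2 fold change was within 0.2 of 0.

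Large fold changes that did not pass the test were often those of replicates 1 and 3. A log2 fold change above 1 or below -1 was found for 310 genes, of which 217 were higher and 93 lower, 143 had a mean under 1 CPM and 4 were called. In 51 of the 310 the groups did not overlap (3.19% of all genes tested did not). Of the 22 genes with a log2 fold change above 1 and a mean of at least 10 CPM, replicates 1 and 3 were the 2 highest libraries in 19, and the median of the 22 went from 1.24 to 0.03 when the treated group was reduced to replicates 2 and 4. Slc17a9, which encodes the vesicular nucleotide transporter, is an example, with 50.7 and 32.2 CPM in treated replicates 1 and 3, 4.22 and 5.46 CPM in replicates 2 and 4, and 1.90 to 6.09 CPM in the control mice. Ndufb2, a subunit of respiratory complex I, had 51.4 and 48.1 CPM in replicates 1 and 3, and 15.2 and 16.5 CPM in replicates 2 and 4.

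**Figure D5:**
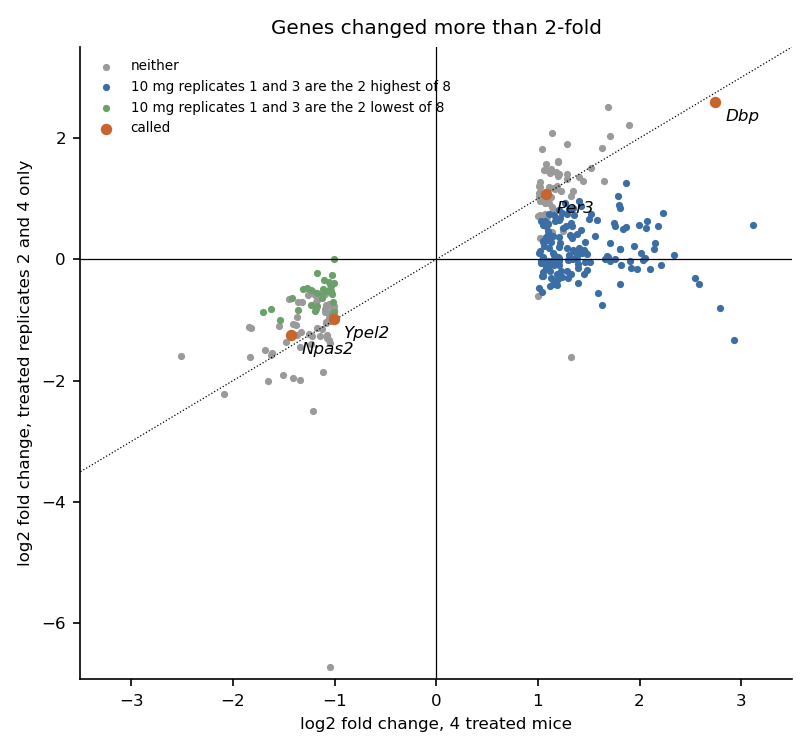
Log2 fold change with all 4 treated mice (horizontal) and with treated replicates 2 and 4 only (vertical) for the 310 genes that differed more than 2-fold from control, with called genes named. The median of the 217 genes above 1 on the horizontal axis is 0.36 on the vertical axis, and that of the 93 genes below -1 is -0.87.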

How the data were processed

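Poly(A) RNA of 1 kidney sample per mouse was made into libraries with the CORALL kit. The authors trimmed reads with Flexbar, mapped them with STAR 2.7.5c to GRCm39 and assigned them to Ensembl genes by htseq-count (HTSeq 1.99.2), and the deposited values are raw read counts per gene for each library. The annotation release, strand setting and use of molecular identifiers are not given in the sources used here. Antisense and overlapping genes, and genes with near-identical copies such as processed pseudogenes, are therefore uncertain. Repeated reads of a molecule were not removed here, so counting error is a lower limit for low genes.

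Genes were matched by identifier to GENCODE vM39 (99.02% of 57180 identifiers, 99.952% of counts). Summary lines of the counting tool were left out. Counts were analysed with edgeR 4.0.16 in R 4.3.3, using filterByExpr with 3 groups, TMM and a quasi-likelihood model of all 12 libraries without covariates. The contrast was 10 mg minus control, and the Benjamini-Hochberg adjusted threshold was 0.1. The standard error was the absolute log2 fold change divided by the square root of F, and 95% intervals used the t distribution. The median total degrees of freedom, prior included, were 15.0 and the common biological coefficient of variation was 0.208. A gene was held within 1.5-fold where its whole interval lay inside that range in both directions. Overlap was judged on log2 CPM with a prior count of 2. Exact permutation tests were two-sided.

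Tested on simulated data for this comparison (16830 genes, 200 of them changed), edgeR recovered 65% of 2-fold and 90% of 4-fold changes, 7.74% of its calls were unchanged genes and 95.22% of intervals held the true value. The simulated data gave 168 edgeR calls, against 5 in the measured data, so a less strict unadjusted p passed the Benjamini-Hochberg adjustment there. The share of changes recovered and the share of unchanged genes among calls therefore hold for the simulated data only. The edgeR p-values weigh a difference against the spread between mice of the same group. That spread was estimated over all 3 groups and moderated across genes.

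The genes named are all called genes, the 8 uncalled protein-coding genes of lowest p in each direction with a mean of at least 1 CPM and no overlap, up to 3 members of each list by p and 2 by level, and the genes the study names. The members and the 49 lists were chosen with earlier results of these data known. Genes named outside this rule were chosen after their values were seen: Per1, Cry1, Cry2 and Bhlhe40, and the marker genes given as examples of a list. The values of 1 list member are not reported here.

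Alternatives were RLE and upper-quartile normalization, DESeq2 1.42.0, limma-voom (limma 3.58.1), no filter beyond 1 count in any library, at least 10 counts in every library, only the 8 libraries compared, the replicate number as a block, the mitochondrial share as a covariate, removal of mitochondrial genes, only libraries with at least 10% mitochondrial counts, an adjusted p under 0.05, and each of the 8 libraries left out in turn. The reduction of the treated group to replicates 2 and 4 was added after the data were seen.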

Additional observations from a re-analysis of the deposited data

Results flagged for a closer look

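In 11 of 158 groups of 4 mice (77 named genes, the library totals and the mitochondrial shares, each in both groups), 1 mouse lay far from the other 3 by Dixon's criterion, which chance meets in about 1 in 20 groups. The values are in CPM. In the control group, the mouse that stood apart was the highest for Aqp2 (109.5, with the others at 42.1 to 53.1), Bmal1 (28.01, others 19.7 to 20.1), Ces1g (49.13, others 13.3 to 13.4), Cnr2 (1.794, others 0.906 to 1.06), Nphs1 (28.77, others 22.8 to 23.2) and Pparg (2.051, others 1.41 to 1.43). It was the lowest for Cidec (1.662, others 14.8 to 15.6) and Cpt1a (325, others 456.3 to 479.5). In the group treated with 10 mg it was the highest for Alb (19, others 6.69 to 7.87) and Ces1g (11.88, others 7.81 to 7.999), and the lowest for Ppm1h (48.57, others 57.1 to 57.9). For Bmal1, Ces1g and Ppm1h the groups did not overlap with these mice included.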

How the results depend on the processing

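The count of called genes was 5 with RLE normalization, limma-voom or mitochondrial genes removed, and 4 with upper-quartile normalization, with at least 10 counts in every library and with the replicate block. With only the 8 libraries compared it was 6, without Ypel2 and with Acmsd and Bmal1. It moved to 40 with DESeq2 (18 higher and 22 lower, with 1669 genes left without an adjusted p), 331 without a filter on low counts (235 higher and 96 lower, of 40012 tested), 15 with the mitochondrial share as a covariate (5 higher and 10 lower), 26 with only libraries of at least 10% mitochondrial counts (17 higher and 9 lower), 3 at an adjusted p under 0.05, and 1 with treated replicates 2 and 4 alone (1 higher and 0 lower). The causes were not tested. Leaving out 1 library at a time gave 2 to 8 calls, of which 1 to 5 were higher and 1 to 3 lower. The lowest count, 2, was reached without control replicate 1 or treated replicate 3, and the highest, 8, without treated replicate 2. Without a filter on low counts, 1096 genes did not overlap between the groups, against 547. The number of genes held within 1.5-fold ranged from 6697 to 10274. Control and treated mice of the same replicate number did not deviate together (correlations of 0.149, -0.32, 0.0849 and 0.283), so the number does not pair them. With the replicate number as a block, 4 genes were called and Npas2 was lost (log2 fold change -1.457, adjusted p = 0.168). Among named genes with an unadjusted p under 0.05 in the main comparison, the log2 fold change changed sign for Pth1r, at -0.04424 with treated replicates 2 and 4, and for Ndufb2, at -0.02902 in that fit and -0.02403 with only libraries of at least 10% mitochondrial counts. The smallest absolute log2 fold change called in the main comparison was 0.98. This limit belongs to that fit, since DESeq2 also called Alas1, which had a log2 fold change of 0.54 in the main comparison.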

Other observations

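Among abundant genes outside the lists, a few enzymes and receptors had large fold changes with wide spread, and none passed edgeR's test. Cyp26b1, which breaks down retinoic acid, had 2.17 to 11.8 CPM in the control mice and 11.5 to 21.1 CPM in the treated mice (log2 fold change 1.29, adjusted p = 0.795), so that only the edges of the groups overlapped. Prlr, the prolactin receptor, had 29.5 to 89.0 CPM in the control mice and 9.63 to 49.7 CPM in the treated mice (log2 fold change -1.17, adjusted p = 0.812). Ces1g, a carboxylesterase that cleaves esters of drugs and lipids, had 13.3 to 49.1 CPM and 7.81 to 11.9 CPM, without overlap (log2 fold change -1.33, adjusted p = 0.795). These genes were chosen after their values were seen.

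By gene class, the 5 calls were all among the 13762 protein-coding genes tested, of which 58.0% were held within 1.5-fold. Of 1699 long non-coding RNA genes, 82 had a higher and 29 a lower level at an unadjusted p under 0.05, and 0 were called. Of 814 processed pseudogenes, 86 had a higher and 7 a lower level at that p, and their median log2 fold change of 0.21 went to -0.03 with treated replicates 2 and 4 alone. All 12 mitochondrial tRNAs had a median log2 fold change of 1.72, which went to 0.56 with replicates 2 and 4.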
